A study of Danio rerio with 15 samples.

Results

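In tissue captured from laser-injured vein of zebrafish larvae, 91 genes were chosen by a rule for a trough 3 h after the injury. Their group mean at 3 h lay at least 1.5 on a log2 scale below those of uninjured vein and of 1, 6 and 12 h. Of the 91 genes, 13 fell under cell division and DNA replication and 13 under transcription and RNA. The rest had other roles or none given, and these role groups were formed after values were seen. Cell division and DNA replication included BUB3 and AURKB of the spindle checkpoint machinery, BIRC5, cdc25b, TOP2A and RPA3. TRAPPC4, a core subunit of the TRAPP complexes that tether vesicles between endoplasmic reticulum and Golgi, showed the deepest trough, with 0 to 0.0457 FPKM at 3 h and 5.92 to 21.9 FPKM in the 12 libraries of the other groups. FPKM is a count of fragments divided by transcript length and by the reads mapped in that library, and log2 differences are given on the log2(FPKM + 1) scale, which understates the change of low genes.

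The genes were chosen by their own levels. A gene had to reach 1 FPKM in at least 3 of 15 libraries, and its mean log2(FPKM + 1) at 3 h had to lie at least 1.5 below the mean of each of the 4 other groups. Its highest value at 3 h also had to lie below all control and all 6 h values. Of 13051 genes that reached the first limit, 99 met the whole rule; 8 of these were among 9 genes left out by name, and the other 91, or 0.697% of the 13051, are described here. The count depends on the 3 h libraries: 191 genes met the rule without the 3 h library B, 173 without C and 138 without A. Since the 3 h values chose the genes, every difference from 3 h is a description and carries no test.

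All larvae, controls included, carried the transgenes of Tg (flk1:eGFP; gata1:dsRed), in which the flk1 promoter marks endothelium and the gata1 promoter marks erythroid cells. Thrombus tissue was taken 1, 3, 6 or 12 h after laser damage to venous endothelium near the anal pore, and control tissue came from uninjured vein. Frozen tissue was cut into 20 sections of 20 µm, and cells were collected from them by laser-capture microdissection. Each group had 3 libraries, lettered A, B and C as in the headers of the deposited values, and values of a group are given in that order. The letter B of the 1 h group is in no 1 h sample title, so that library is known only by its group. The age of the larvae is not given in the sources used here. Uninjured tissue forms a single group with no time of its own, and which larvae a library came from is not stated. The p-values below are therefore about the spread of libraries, possibly technical, and are too small if libraries share a larva.

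As background, a dividing cell copies its DNA with polymerases, a clamp loader and single-strand binding proteins, and then separates the copies on a spindle of microtubules. The spindle checkpoint, to which BUB3 belongs, holds division until every chromosome is attached, and the chromosomal passenger complex, with Aurora B (AURKB) and survivin (BIRC5), corrects wrong attachments. Growing larval tissue holds many dividing cells, and transcripts of mitotic genes rise and fall with the cycle in each of them.

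The libraries held 12486844 to 15651535 reads, recovered from the steps between FPKM values. Genes that lay at least 1.5 below all other groups, by the distance term alone, numbered 151 for 3 h, 85 for 1 h, 44 for 6 h, 9 for 12 h and 7 for the control. Cell type markers were summed by list. The thrombocyte list ranged from 17.0 to 19.3 FPKM in control libraries and from 56.0 to 103 FPKM in those of 3 h. Most of this was 1 gene, THBS1, with 4.74 to 17.5 and 50.5 to 87.4 FPKM, which other cells also make; the defining gene itga2b was at 0 to 0.262 FPKM in the control and 0.0425 to 0.398 FPKM at 3 h. Neutrophil markers ranged from 53.5 to 71.8 FPKM in control libraries and from 123 to 190.0 FPKM in those of 3 h. The rise lay in the protease genes MMP9 (0 to 0.413 and 46.5 to 113 FPKM) and mmp13a (0.189 to 1.01 and 11.8 to 49.7 FPKM). The neutrophil marker npsn did not rise, with 27.3 to 59.8 FPKM in control libraries and 24.1 to 44.2 FPKM in those of 3 h. Summed notochord and cartilage markers were lower at 3 h, with 139 to 479 FPKM in control libraries and 47.7 to 116 FPKM in those of 3 h. Endothelial markers (37.1 to 48.9 and 16.5 to 40.3 FPKM), erythroid markers (2501 to 4806 and 997 to 5153 FPKM) and skeletal muscle markers (57290 to 74623 and 43459 to 64313 FPKM) had ranges that overlapped between control and 3 h. So did fin fold and fibroblast (570 to 615 and 431 to 935 FPKM), neural (54.0 to 86.3 and 51.0 to 144 FPKM), macrophage (21.5 to 29.1 and 17.3 to 29.3 FPKM) and epidermis markers (1657 to 2941 and 947 to 3474 FPKM). Neural markers reached 1146 FPKM in a 12 h library. Of all lists, skeletal muscle markers had by far the highest sums in every group, uninjured tissue included, so the captured tissue was not vein alone. The endothelial overlap rested on 3 h A, where CLDN5 alone gave 17.3 FPKM, beside 0.595 to 10.6 FPKM in control libraries. The erythroid overlap rested on 3 h C, where HBE1 gave 2609 FPKM, beside 695 and 451 FPKM in 3 h A and B. The median log2 difference at 3 h from control was -0.64 for the endothelial list and -0.59 for the erythroid list, beside -0.13 over all genes. It was lowest for the notochord and cartilage list, at -1.98. The other lists lay between -0.25 (skeletal muscle) and 0.96 (fin fold and fibroblast), with neural markers at 0.70. None of the 91 genes is on a marker list. In such bulk tissue, fewer cells of a type and less RNA per cell cannot be told apart, and the part of the markers in the results below was not tested.

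Most of the genes were low at 3 h, though not all. Of the 91, 8 were listed at 0 in all 3 h libraries (among them IGFBP7, ATPSCKMT, C18H11orf58, HOXC5, NTMT2, MED7 and PUS1), and 52 were listed at 0 in at least 1 of them. In all 3 libraries of 3 h at once, 29 were under 1 FPKM, while 6 kept more than 5 FPKM in each (among them IER3IP1, vgll2b, TBCA, PFDN1 and SDHAF4). In the other 12 libraries, 11 of the genes were listed at 0 at least once. The median log2 difference of 3 h from control was -2.36, with a range of -4.06 to -1.51, beside -0.13 over all 13051 genes. The medians were -2.08 against 1 h, -2.41 against 6 h and -2.59 against 12 h, beside 0.00, -0.07 and -0.45 over all genes.

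**Figure D1:**
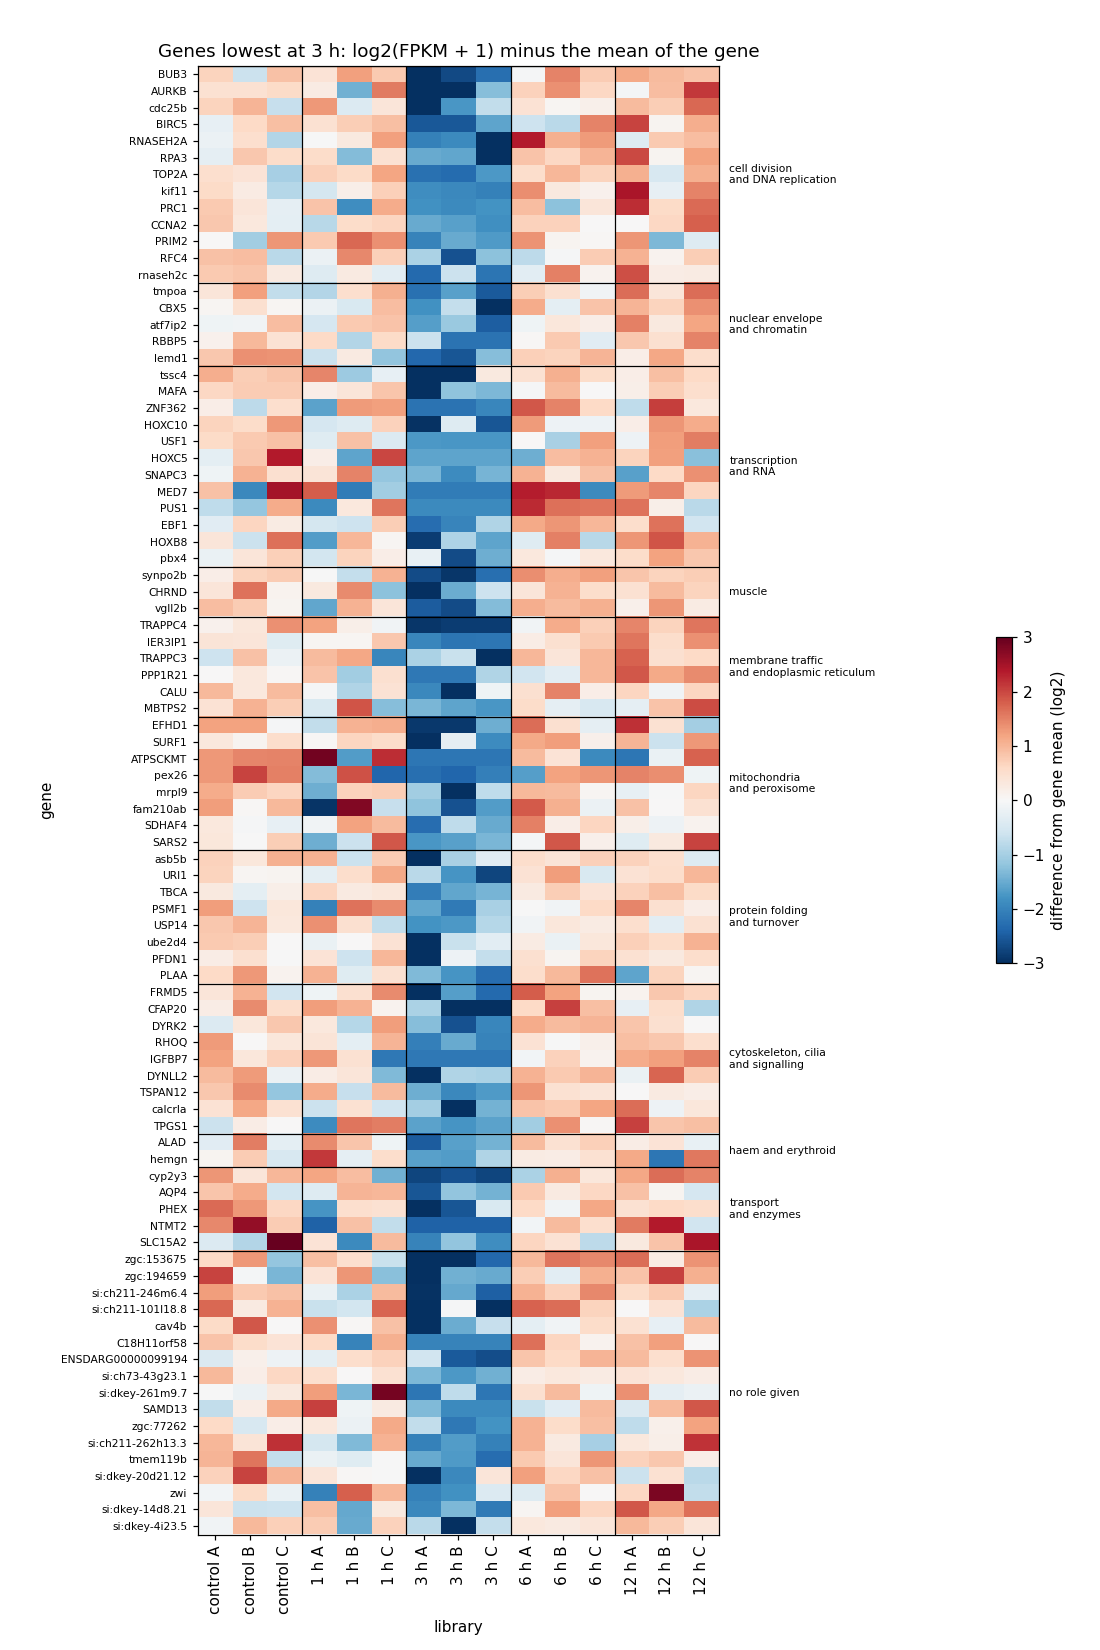
Heat map of 88 of the 91 genes (rows, grouped by role) in the 15 libraries (columns); colour is log2(FPKM + 1) minus the mean of the gene over the libraries, red above and blue below it. The 3 h columns are blue in nearly all rows, and single libraries of other groups, such as 1 h A and 1 h B, are also low for some genes, such as PUS1 and MED7.

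The 3 h libraries differed among themselves. Library A was the lowest for 33 genes, B for 23 and C for 15, and 20 genes had tied lowest values. The median of the 91 genes was 0.279 FPKM in A, 0.460 FPKM in B and 0.964 FPKM in C. Within single genes the spread varied: SURF1 (0.137, 17.0 and 4.83 FPKM) and si:dkey-20d21.12 (0, 4.06 and 23.9 FPKM) are examples of a wide spread. In contrast, 29 of the 91 were under 1 FPKM in each 3 h library. The rule set the separation from control and 6 h. It set none from single libraries of the other times, and every 1 h library lay above every 3 h library for 56 of the 91 genes, and every 12 h library for 80. Some genes given below by control and 3 h values alone thus overlap 1 h or 12 h libraries. In 1 h A, fam210ab and TPGS1 had 0 reads, and PHEX had 46 beside 174 in 3 h C. By recovered reads CALU, PPP1R21, RBBP5, SARS2, HOXC10, HOXB8 and pbx4 also overlapped a 1 h library, and SNAPC3 and PLAA a 12 h library. HOXC5 had 0 reads in 1 h B, as at 3 h.

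The values rest on read numbers that differ widely between genes. Summed over the 3 control libraries a gene had 61 to 6870 reads, with a median of 907, and at 3 h the median was 78. For 11 genes the 3 h libraries held at most 3 reads in all, the 8 listed at 0 and TRAPPC4, cyp2y3 and USF1. In the control the genes were more abundant than most: their median of mean FPKM was 12.0, beside 2.63 over all genes that reached the first limit. By its construction the rule takes only genes whose 4 other group means reach at least 1.5 on the log2(FPKM + 1) scale. The median transcript length given by the FPKM steps was 1623 bases, beside 2212 bases over all genes.

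**Figure D2:**
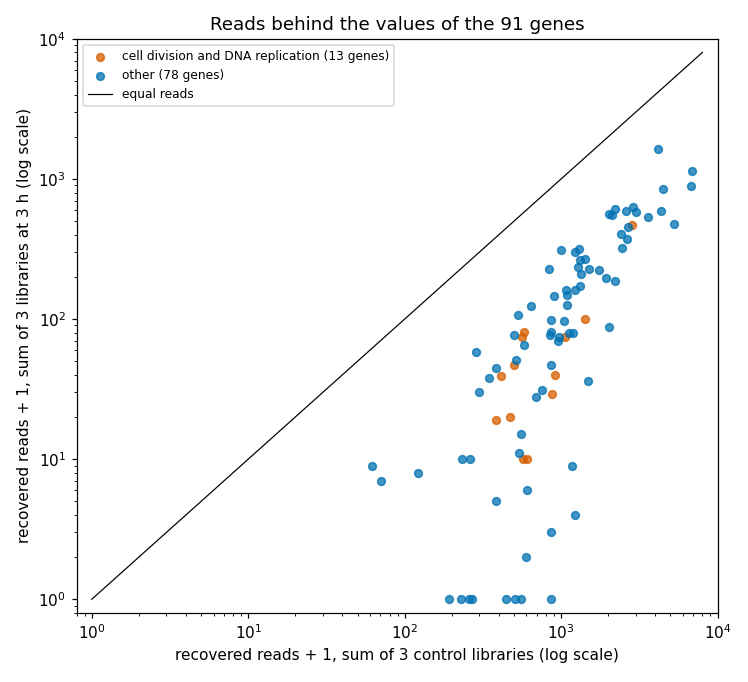
Recovered reads of the 91 genes, summed over the 3 control libraries (x axis, log scale) and over the 3 libraries at 3 h (y axis, log scale), each plus 1; orange marks genes of cell division and DNA replication, blue the others, and the line marks equal reads. All points lie below the line, from 61 to 6870 reads in the control, and 11 genes have at most 3 reads at 3 h.

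Outside 3 h, the highest of the 4 other group means was at 12 h for 42 genes (46.2%), at 6 h for 25 (27.5%), in the control for 19 (20.9%) and at 1 h for 5 (5.49%). Over all 13051 genes the shares were 46%, 19.1%, 17.3% and 17.6% in the same order. The share at 12 h was thus close to that over all genes, and the share at 1 h was lower. The rule limits single 6 h and control values and no single 1 h or 12 h value, and these shares were not tested.

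Genes of cell division and DNA replication numbered 13; like all role groups here, this one was formed after the values were seen. Their mean was 3.41 to 20.1 FPKM in the control and 0.0492 to 3.83 FPKM at 3 h, and the median log2 difference of 3 h from control was -2.15. BUB3 (ENSDARG00000075883), which carries checkpoint signals at unattached kinetochores, was at 16.8, 6.12 and 19.4 FPKM in control libraries, 13.8, 25.1 and 18.3 at 1 h and 0, 0.700 and 1.31 at 3 h. At 6 h it was at 9.83, 30.3 and 17.9 FPKM and at 12 h at 23.5, 20.7 and 19.1. All 3 h libraries were below every other library, the nearest being control B, and BUB3 was -3.12 on the log2 scale from the control and -3.80 from 12 h. AURKB (ENSDARG00000037640), the kinase of the chromosomal passenger complex, was at 11.0, 11.0 and 12.1 FPKM in control libraries, 9.45, 2.20 and 24.8 at 1 h and 0, 0 and 2.62 at 3 h. The 6 h libraries held 13.0, 21.7 and 12.4 FPKM and the 12 h libraries 7.36, 15.7 and 37.2. It was listed at 0 in the 3 h libraries A and B, and 3 h C overlapped 1 h B alone. BIRC5, survivin, a partner of that kinase, was at 3.97, 7.90 and 9.96 FPKM in control libraries, 7.06, 8.85 and 10.0 at 1 h and 0, 0 and 0.964 at 3 h. Its levels were 2.83, 2.36 and 15.5 FPKM at 6 h and 23.0, 5.24 and 11.6 at 12 h. It showed no overlap between 3 h and the other groups, although 6 h A and B were also low.

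The phosphatase cdc25b, which activates cyclin-dependent kinases at entry into mitosis, was at 22.8, 29.2 and 8.22 FPKM in control libraries, 35.7, 10.3 and 18.2 at 1 h and 0.0748, 3.47 and 7.93 at 3 h. In the 6 h libraries it measured 19.1, 14.6 and 15.7 FPKM, and 27.7, 23.8 and 48.3 in those of 12 h. It was well measured in the 3 h libraries B and C, and 3 h C lay just below control C. TOP2A, the topoisomerase that untangles sister chromatids, was at 7.66, 7.09 and 2.07 FPKM in control libraries, 8.97, 8.05 and 12.7 at 1 h and 0.279, 0.230 and 0.849 at 3 h. Values of 7.72, 11.0 and 8.65 FPKM followed at 6 h and of 11.8, 3.36 and 11.8 at 12 h. No 3 h library reached the lowest of the others, control C. RPA3, the smallest subunit of the single-strand DNA binding protein RPA, was at 11.7, 25.7 and 21.4 FPKM in control libraries, 21.4, 5.20 and 19.9 at 1 h and 4.33, 4.22 and 0.348 at 3 h. Later levels were 26.4, 22.7 and 29.8 FPKM at 6 h and 59.2, 15.3 and 34.2 at 12 h. It did not overlap at 3 h, and only 1 h B came near to the 3 h libraries A and B.

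The mitotic motor kif11, which pushes spindle poles apart, was at 5.09, 3.87 and 1.27 FPKM in the control against 0.126, 0.0651 and 0 at 3 h. PRC1, which bundles midzone microtubules and is summed here over 2 gene IDs, was at 5.38, 3.78 and 2.11 FPKM in the control against 0.0669, 0 and 0.0807 at 3 h. CCNA2, cyclin A, was at 5.24, 3.42 and 1.90 FPKM in the control against 0.254, 0.146 and 0 at 3 h. These genes of the mitotic apparatus were all under 1 FPKM in each 3 h library, and PRC1 was also at 0.0301 FPKM in 1 h B, within the 3 h range. The replication genes were PRIM2, a primase subunit, at 3.09, 0.960 and 9.09 FPKM in the control against 0, 0.426 and 0.253 at 3 h, and RFC4, a clamp loader subunit, at 10.3, 10.6 and 2.48 FPKM in the control against 2.15, 0 and 1.61 at 3 h. Subunits of ribonuclease H2, which removes RNA from DNA, were RNASEH2A at 6.45, 10.8 and 3.54 FPKM in the control against 1.07, 1.23 and 0 at 3 h and rnaseh2c at 7.68, 7.94 and 5.04 FPKM in the control against 0, 2.18 and 0.0928 at 3 h. In all of these the highest 3 h library lay below the lowest control library, as the rule requires, and the gap was narrow for RFC4. RNASEH2A was highest at 6 h, with 42.4, 16.6 and 19.2 FPKM, -3.90 on the log2 scale between 3 and 6 h. On deposited FPKM, 9 of the 13 genes had their highest mean at 12 h. So did 46% of all 13051 genes among the 4 groups other than 3 h.

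**Figure D3:**
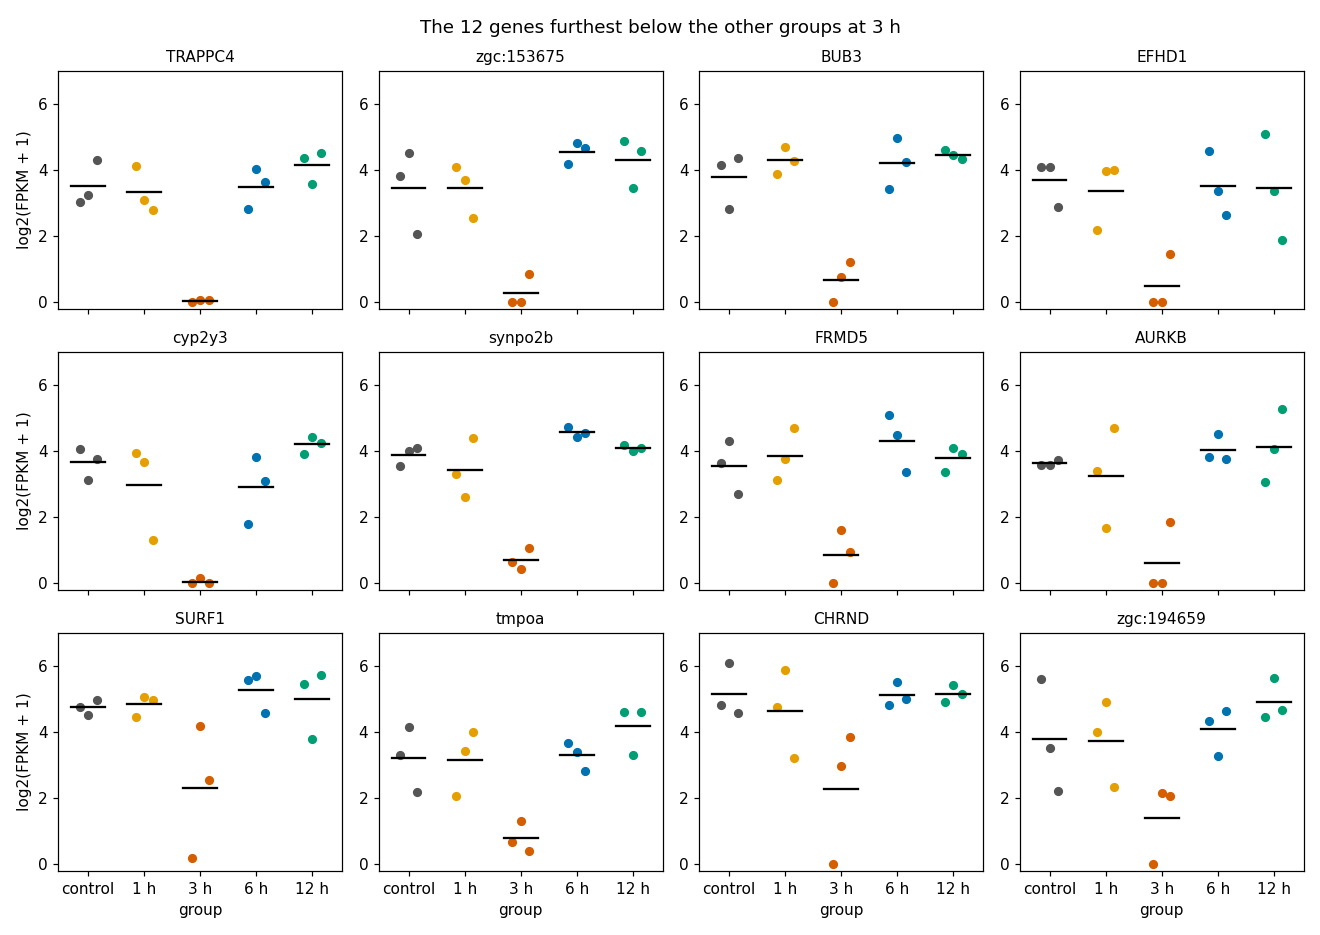
log2(FPKM + 1) of the 12 genes with the largest distance between 3 h and the nearest other group mean; points are single libraries (A, B and C from left to right), the horizontal bars are group means, and the groups are control, 1, 3, 6 and 12 h. The 3 h points are the lowest of each panel, except that SURF1 in 3 h B (17.0 FPKM) lies above 12 h B (12.9 FPKM), AURKB in 3 h C above 1 h B and CHRND in 3 h C above 1 h C.

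A wider list of 153 cell cycle names held 122 genes that reached the first limit, and 12 of them (9.84%) were among the 91; these are 11 of the genes above and zwi. The other 5 lists held fewer: 2 of 258 mitochondrial genes (0.775%), 4 of 317 of protein turnover (1.26%), 1 of 123 of chromatin (0.813%), 0 of 206 of RNA processing and 0 of 84 of muscle, beside 0.697% of all genes. All lists were chosen with earlier results of these data known, so these shares are a description and were not tested. In the difference of 3 h from control, which the rule used, 99 of the 122 cell cycle genes were negative and 22 positive, with a median of -0.70 beside -0.13 over all genes. The counts by sign were the same after median ratio scaling (median -0.71, all genes -0.09), and 100 negative and 22 positive with voom on recovered reads. The voom median, on a scale with no added 1 FPKM, was -2.19 beside -0.23 over all genes. The 122 include the 12 chosen genes, and genes left out by name that met the rule, all of which are negative by selection. These counts and medians are thus partly set by the rule under each scaling, and none was made without those genes.

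Cell cycle genes that were not chosen differed in their levels at 3 h, and not all were lower than in the control. CDK1, the main mitotic kinase, was at 9.37, 5.23 and 0.707 FPKM in control libraries, 0.584, 3.48 and 11.4 at 1 h and 0.226, 0.233 and 0.710 at 3 h. By 6 h the libraries gave 11.1, 5.52 and 5.70 FPKM, and at 12 h 8.60, 4.56 and 5.47. Its 3 h libraries overlapped control C and 1 h A, which were also low. PCNA, the sliding clamp of DNA polymerases, was at 44.7, 80.3 and 39.5 FPKM in control libraries, 98.6, 9.89 and 91.2 at 1 h and 21.3, 28.5 and 25.9 at 3 h. Later, 143, 116 and 91.0 FPKM were measured at 6 h and 97.4, 69.1 and 36.1 at 12 h, and its 3 h libraries lay above 1 h B and below all the others. CCNB2, a B-type cyclin, was at 0, 0.917 and 2.60 FPKM in control libraries, 2.29, 3.86 and 10.9 at 1 h and 0.531, 0 and 3.68 at 3 h. At 6 h it was at 0.749, 2.69 and 6.56 FPKM and at 12 h at 5.83, 4.37 and 0.895, and its 3 h libraries overlapped the control. The log2 difference of 3 h from control was thus 0.02 in CCNB2, beside -3.12 in BUB3. The control mean of CCNB2 was low as well (1.17 FPKM, beside 1.40 FPKM at 3 h), which left little room for a drop below it. Its means were higher at 1 h (5.67 FPKM), 6 h (3.33 FPKM) and 12 h (3.70 FPKM), but 3 h C lay above 1 h A, 6 h A, 6 h B and 12 h C. CDK1, PCNA and CCNB2 were picked after their values were seen.

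**Figure D4:**
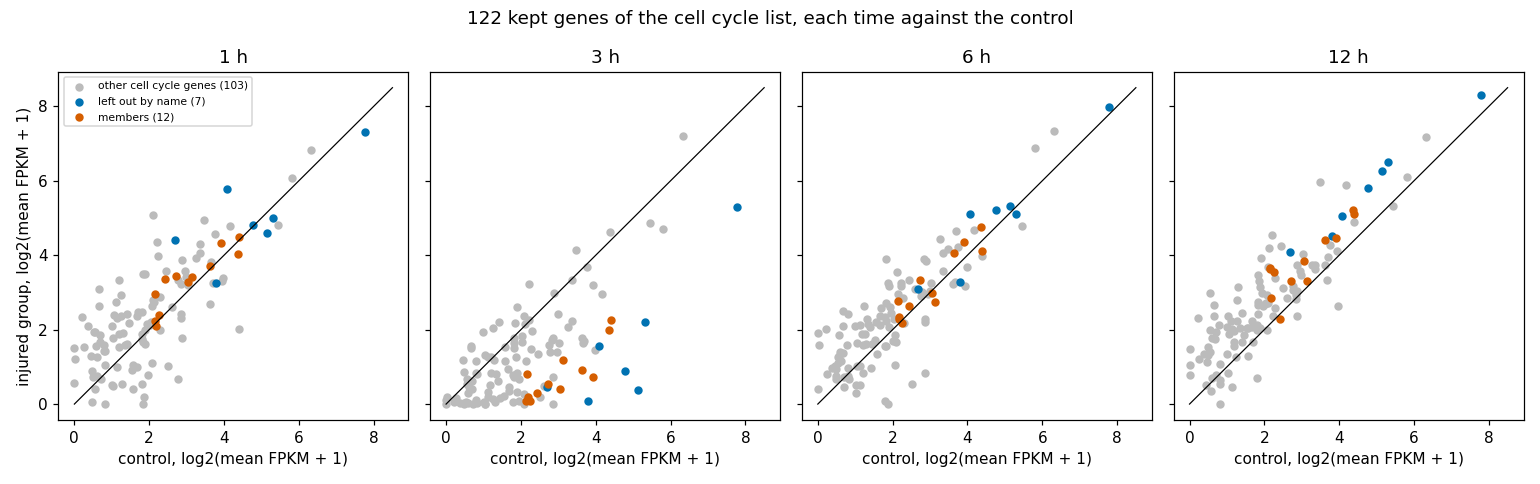
The 122 genes of the cell cycle list, with log2(mean FPKM + 1) in the control on the x axis and in each injured group on the y axis; orange marks the 12 that are among the 91, blue those left out by name, grey the rest, and the line marks equal levels. At 3 h, 99 of 122 genes had a lower mean log2(FPKM + 1) than in the control, the orange ones by the rule that chose them. The median differences of the list were 0.26 at 1 h, 0.41 at 6 h and 0.59 at 12 h (0.34 after median ratio scaling).

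In the comparisons without 3 h the cell cycle list had medians of 0.26 at 1 h, 0.41 at 6 h and 0.59 at 12 h against the same control libraries, beside -0.12, -0.02 and 0.32 over all genes. At 12 h the median was 0.34 after median ratio scaling, beside 0.10 over all genes, and 0.48 with voom, beside 0.15. In limma 1 gene of the list passed at 1 h, the cohesin subunit gene rad21a, which was lower, and 0 passed at 6 or 12 h; with voom 0 passed in any of the 3. Named after its value was seen, rad21a is not one of the 91.

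Nuclear envelope and chromatin had 5 genes. The LEM domain protein lemd1, whose family binds chromatin at the inner nuclear membrane, had one of the highest control levels of the 91 and was at 61.5, 90.8 and 88.7 FPKM in control libraries, 21.6, 41.6 and 14.6 at 1 h and 5.98, 4.97 and 13.6 at 3 h. The 6 h libraries held 57.6, 55.2 and 71.0 FPKM and the 12 h libraries 39.4, 77.8 and 49.8. Its 3 h libraries did not overlap any other, but 1 h C was only just above 3 h C, and the 1 h libraries lay below all control and 6 h libraries, while 1 h B was above 12 h A. The thymopoietin gene tmpoa, of the same LEM family, was at 8.87, 16.8 and 3.55 FPKM in control libraries, 3.15, 9.74 and 15.0 at 1 h and 0.611, 1.48 and 0.324 at 3 h. Its levels were 11.7, 9.60 and 6.13 FPKM at 6 h and 23.4, 8.80 and 23.5 at 12 h. It did not overlap at 3 h, and 1 h A and control C were the nearest. CBX5, heterochromatin protein HP1 alpha, was at 19.4, 26.2 and 19.6 FPKM in control libraries, 16.4, 13.3 and 36.5 at 1 h and 4.53, 10.9 and 1.25 at 3 h. In the 6 h libraries it measured 41.4, 15.1 and 34.4 FPKM, and 38.6, 30.3 and 49.9 in those of 12 h. The groups did not overlap, with 3 h B just below 1 h B. RBBP5, a subunit of histone methyltransferase complexes, was at 4.04, 8.02 and 5.28 FPKM in the control against 1.94, 0 and 0 at 3 h, and atf7ip2, a relative of a partner of the methyltransferase SETDB1, was at 4.09, 4.15 and 9.41 FPKM in the control against 0.769, 1.53 and 0 at 3 h. On deposited FPKM, 4 of these 5 genes had their highest mean at 12 h. Among the 4 groups other than 3 h, this held for 46% of all genes. The highest mean of lemd1 was in the control.

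Transcription and RNA had 13 genes, 6 of them under 1 FPKM in each 3 h library. The homeobox genes of the Hox clusters, which give cells their place along the body axis, were HOXC10 at 11.3, 10.5 and 18.4 FPKM in the control against 0, 4.94 and 0.319 at 3 h, HOXB8 at 8.24, 3.59 and 21.5 FPKM in the control against 0, 2.81 and 1.40 at 3 h and HOXC5 at 1.44, 4.21 and 14.4 FPKM in the control against 0 in each library at 3 h. Their cofactor pbx4 was at 7.65, 11.7 and 15.1 FPKM in the control against 7.51, 0.547 and 2.57 at 3 h. HOXC5 was uneven outside 3 h as well, with 0.0837 FPKM in 6 h A. Of the other transcription factors, the basic zipper factor MAFA, even among the control libraries, was at 23.1, 25.8 and 25.4 FPKM in the control against 0.606, 5.84 and 5.13 at 3 h, and USF1, which binds E-boxes, was at 4.01, 4.83 and 5.21 FPKM in the control against 0.0270, 0 and 0 at 3 h. EBF1, summed over 2 IDs, was at 3.01, 6.88 and 4.94 FPKM in the control against 0.0292, 0.271 and 1.70 at 3 h, and the zinc finger gene ZNF362, also of 2 IDs, at 4.41, 1.70 and 5.63 FPKM in the control against 0, 0 and 0.196 at 3 h.

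MED7, a subunit of the Mediator complex between transcription factors and RNA polymerase II, was at 6.85, 0.119 and 22.9 FPKM in control libraries, 13.9, 0 and 1.08 at 1 h and 0 in each library at 3 h. Values of 20.8, 19.4 and 0.130 FPKM followed at 6 h and of 9.36, 10.7 and 5.63 at 12 h. It was listed at 0 at 3 h, but also in 1 h B, and was near 0 in control B and 6 h C. PUS1, which makes pseudouridine in transfer RNA, was at 1.19, 0.664 and 7.05 FPKM in control libraries, 0, 3.65 and 10.3 at 1 h and 0 in each library at 3 h. Later levels were 16.6, 10.8 and 10.4 FPKM at 6 h and 10.5, 3.23 and 1.13 at 12 h. Its mean was highest at 6 h, and 1 h A was at 0 like 3 h. SNAPC3, of the complex that starts small nuclear RNA genes, was at 8.65, 20.6 and 13.7 FPKM in the control against 3.05, 1.86 and 3.00 at 3 h. The splicing-related gene tssc4, known in human cells from assembly of a spliceosome particle, was at 24.8, 19.2 and 20.7 FPKM in the control against 0, 0.231 and 13.9 at 3 h, with 3 h C above 1 h B, 1 h C and 12 h A.

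Some of the genes are known from muscle. CHRND, the delta subunit of the acetylcholine receptor at the neuromuscular junction, was at 27.4, 67.6 and 22.8 FPKM in control libraries, 26.3, 58.3 and 8.36 at 1 h and 0, 6.91 and 13.3 at 3 h. By 6 h the libraries gave 27.5, 44.4 and 31.1 FPKM, and at 12 h 29.2, 41.6 and 34.4. It was listed at 0 only in 3 h A, and 3 h C overlapped 1 h C. The actin-binding gene synpo2b, of the synaptopodin family, was at 10.6, 15.1 and 16.1 FPKM in control libraries, 8.95, 5.11 and 19.8 at 1 h and 0.561, 0.338 and 1.11 at 3 h. Later, 25.5, 20.3 and 22.5 FPKM were measured at 6 h and 17.0, 15.1 and 15.9 at 12 h. All 3 h libraries were far below every other, and the differences were -3.17 from control and -3.85 from 6 h. The cofactor vgll2b, a vestigial-like partner of TEAD transcription factors, had the highest control mean of the 91 and was at 119.8, 107 and 65.8 FPKM in control libraries, 20.4, 129.8 and 80.7 at 1 h and 10.1, 8.85 and 24.6 at 3 h. At 6 h it was at 133, 121 and 131 FPKM and at 12 h at 69.6, 157 and 73.2. It kept a clear signal at 3 h, and 3 h C overlapped 1 h A. The list of structural muscle genes had no member among the 91: its 84 genes had a median difference of 0.10 at 3 h, and summed skeletal muscle markers overlapped between control and 3 h, as given above.

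Membrane traffic and the endoplasmic reticulum had 6 genes, with TRAPPC4 first of all 91 by distance (3.29). TRAPPC4 (ENSDARG00000027418) was at 7.23, 8.46 and 18.5 FPKM in control libraries, 16.2, 7.50 and 5.92 at 1 h and 0, 0.0457 and 0.0428 at 3 h. The 6 h libraries held 6.01, 15.3 and 11.4 FPKM and the 12 h libraries 19.5, 11.0 and 21.9. Its 3 h libraries held 0, 1 and 1 reads, and every other library held 131 to 505 reads. TRAPPC3, another core subunit, was at 8.27, 25.4 and 11.7 FPKM in the control against 6.45, 8.02 and 0 at 3 h, and 1 h C (2.71 FPKM) lay within its 3 h range. IER3IP1, a small membrane protein of the endoplasmic reticulum, was at 38.0, 37.4 and 22.0 FPKM in control libraries, 29.9, 30.1 and 51.0 at 1 h and 6.61, 5.50 and 5.64 at 3 h. Its levels were 33.5, 40.3 and 49.9 FPKM at 6 h and 88.9, 41.7 and 75.7 at 12 h. It was one of the most even, with 3 h libraries close together and below all others. MBTPS2, the protease that frees SREBP and ATF6 from Golgi membranes, was at 3.86, 6.44 and 5.01 FPKM in control libraries, 1.64, 12.5 and 0.484 at 1 h and 0.409, 0.211 and 0.0740 at 3 h. In the 6 h libraries it measured 4.29, 2.02 and 1.61 FPKM, and 2.01, 5.56 and 13.0 in those of 12 h. It did not overlap, although 1 h C came close to 3 h A. CALU, a calcium-binding protein of the secretory pathway, was at 16.5, 10.2 and 16.4 FPKM in the control against 1.34, 0.0787 and 7.26 at 3 h, and PPP1R21, an endosomal protein, at 3.43, 4.51 and 3.55 FPKM in the control against 0, 0 and 1.37 at 3 h.

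Mitochondria and the peroxisome had 8 genes. EFHD1, a calcium-binding protein of mitochondria, was at 16.1, 16.2 and 6.31 FPKM in control libraries, 3.51, 14.5 and 15.0 at 1 h and 0, 0 and 1.73 at 3 h. Values of 22.7, 9.37 and 5.21 FPKM followed at 6 h and of 33.0, 9.29 and 2.68 at 12 h. The groups did not overlap, and 12 h C was the nearest to 3 h C. SURF1, an assembly factor of cytochrome c oxidase, was at 26.1, 22.0 and 30.3 FPKM in control libraries, 21.0, 32.6 and 30.5 at 1 h and 0.137, 17.0 and 4.83 at 3 h. Later levels were 46.6, 50.3 and 22.9 FPKM at 6 h and 42.9, 12.9 and 52.4 at 12 h. Its trough rested on 3 h A and C, while 3 h B was above 12 h B and not far below control B. SDHAF4, an assembly factor of succinate dehydrogenase, was at 39.9, 31.3 and 26.7 FPKM in control libraries, 29.7, 75.3 and 63.2 at 1 h and 5.74, 18.6 and 10.6 at 3 h. By 6 h the libraries gave 93.6, 36.8 and 50.6 FPKM, and at 12 h 36.2, 28.8 and 34.5. It was lower at 3 h without overlap and was still well detected. The mitochondrial ribosome gene mrpl9 was at 16.8, 13.1 and 11.9 FPKM in control libraries, 2.02, 12.3 and 12.7 at 1 h and 3.03, 0 and 3.91 at 3 h. Later, 15.2, 14.9 and 7.69 FPKM were measured at 6 h and 5.95, 7.17 and 12.0 at 12 h, with 1 h A inside the 3 h range.

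ATPSCKMT, which methylates a subunit of ATP synthase, was at 10.1, 11.5 and 11.7 FPKM in control libraries, 32.4, 0.413 and 19.8 at 1 h and 0 in each library at 3 h. At 6 h it was at 7.68, 4.98 and 0.202 FPKM and at 12 h at 0, 2.92 and 14.3. It was listed at 0 at 3 h and in 12 h A, and was under 1 FPKM in 1 h B and 6 h C. The peroxisome import gene pex26 was at 11.9, 20.2 and 13.9 FPKM in the control against 0.0908, 0 and 0.263 at 3 h, and 1 h C was at 0. SARS2, the mitochondrial seryl-tRNA synthetase, was at 3.30, 2.37 and 4.63 FPKM in the control against 0, 0.0911 and 0.298 at 3 h, and fam210ab, of a mitochondrial protein family, at 17.2, 6.86 and 14.0 FPKM in the control against 2.29, 0.257 and 1.39 at 3 h. The list of 258 mitochondrial genes had a median difference of -0.27 at 3 h from control, with 192 negative, in the contrast the rule used. Over all genes that median was -0.13. At 1 h against control the list had a median of -0.12 with 149 negative, beside -0.12 over all genes.

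Protein folding and turnover had 9 genes, several of them abundant. TBCA, a tubulin-folding cofactor, was at 82.8, 54.9 and 76.5 FPKM in control libraries, 106.2, 81.8 and 86.0 at 1 h and 15.3, 22.3 and 25.3 at 3 h. The 6 h libraries held 82.3, 113 and 90.9 FPKM and the 12 h libraries 109, 127 and 101. Every 3 h library lay below every other, and the log2 difference of 3 h from control was -1.73. PFDN1, a subunit of the prefoldin chaperone that hands actin and tubulin to the chaperonin, was at 95.4, 114 and 80.8 FPKM in control libraries, 109.5, 52.6 and 164 at 1 h and 8.67, 73.0 and 49.1 at 3 h. Its levels were 115, 86.1 and 131 FPKM at 6 h and 112, 99.6 and 119 at 12 h. It was low mainly in 3 h A, and 3 h B overlapped 1 h B. URI1, a prefoldin-like protein, was at 16.9, 10.6 and 10.9 FPKM in the control against 5.36, 2.27 and 0.657 at 3 h.

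PSMF1, an inhibitor and assembly regulator of the proteasome, was at 9.34, 1.84 and 4.45 FPKM in control libraries, 0.0621, 12.5 and 10.6 at 1 h and 0.481, 0 and 1.22 at 3 h. In the 6 h libraries it measured 3.30, 3.05 and 5.52 FPKM, and 10.9, 5.01 and 3.99 in those of 12 h, and 1 h A lay inside its 3 h range. USP14, a deubiquitinase on the proteasome, was at 11.5, 13.5 and 7.87 FPKM in control libraries, 17.4, 8.95 and 3.29 at 1 h and 1.06, 1.16 and 2.92 at 3 h. Values of 5.68, 8.10 and 7.47 FPKM followed at 6 h and of 9.06, 4.78 and 8.75 at 12 h, with no overlap and with 1 h C just above 3 h C. The ubiquitin-conjugating enzyme ube2d4 was at 30.6, 29.6 and 17.6 FPKM in control libraries, 15.1, 17.4 and 24.0 at 1 h and 0.623, 10.5 and 13.8 at 3 h. Later levels were 20.9, 15.1 and 22.2 FPKM at 6 h and 29.2, 26.1 and 36.9 at 12 h. It was nearly lost in 3 h A only, and the groups did not overlap. The gene asb5b, of a family of substrate receptors for ubiquitin ligases, was at 37.3, 28.8 and 48.3 FPKM in control libraries, 47.5, 14.2 and 39.1 at 1 h and 0.150, 11.1 and 17.8 at 3 h. By 6 h the libraries gave 33.0, 29.8 and 37.9 FPKM, and at 12 h 37.0, 32.7 and 17.1. Its 3 h C library lay above 1 h B and 12 h C, so the separation from these groups was incomplete. PLAA, a ubiquitin-binding partner of the VCP segregase, was at 6.36, 11.1 and 4.26 FPKM in the control against 0.945, 0.426 and 0 at 3 h. The list of 317 protein turnover genes had a median difference of -0.37 at 3 h from control, with 211 negative, in the contrast the rule used. Over all genes that median was -0.13. The list was nearly as low at 1 h against control, with a median of -0.36 and 211 negative, beside -0.12 over all genes. Its shift was thus not particular to 3 h.

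The cytoskeleton, cilia and signalling had 9 genes. FRMD5, a FERM domain protein of cell junctions summed over 2 IDs, was at 11.4, 18.8 and 5.49 FPKM in control libraries, 7.80, 12.4 and 24.9 at 1 h and 0, 2.06 and 0.905 at 3 h. Later, 33.2, 21.3 and 9.21 FPKM were measured at 6 h and 9.40, 15.9 and 14.0 at 12 h. The groups did not overlap. DYNLL2, a dynein light chain summed over 2 IDs, was at 72.6, 91.5 and 32.6 FPKM in control libraries, 43.4, 47.7 and 14.2 at 1 h and 0.575, 19.3 and 18.6 at 3 h. At 6 h it was at 77.5, 65.0 and 76.2 FPKM and at 12 h at 32.4, 126 and 63.6. It was nearly lost in 3 h A, and 3 h B and C lay above 1 h C. CFAP20, a protein of ciliary microtubules, was at 16.7, 39.4 and 20.7 FPKM in the control against 6.83, 0.866 and 0.304 at 3 h, with 6.83 FPKM in 3 h A just below 12 h C (7.07 FPKM). TPGS1, a subunit of a tubulin-modifying enzyme, was at 1.36, 3.29 and 2.68 FPKM in the control against 0.210, 0.0720 and 0.202 at 3 h. The kinase DYRK2 was at 3.89, 7.19 and 10.3 FPKM in the control against 1.65, 0.0641 and 0.672 at 3 h, and the small GTPase RHOQ at 9.11, 3.20 and 4.28 FPKM in the control against 0, 0.460 and 0.0331 at 3 h.

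Genes known from vessels stood here too. IGFBP7, a secreted protein of vessel walls, was at 9.22, 4.56 and 6.08 FPKM in control libraries, 9.74, 5.07 and 0 at 1 h and 0 in each library at 3 h. The 6 h libraries held 3.13, 6.08 and 3.76 FPKM and the 12 h libraries 8.51, 9.27 and 11.3. It was listed at 0 in all 3 h libraries and in 1 h C. The adrenomedullin and CGRP receptor gene calcrla, active in zebrafish endothelium, was at 14.1, 24.0 and 14.4 FPKM in control libraries, 6.17, 14.4 and 6.50 at 1 h and 4.50, 0 and 3.24 at 3 h. Its levels were 19.3, 18.3 and 24.6 FPKM at 6 h and 34.7, 9.11 and 13.1 at 12 h. It did not overlap, and 1 h A (6.17 FPKM) was the nearest to 3 h A. TSPAN12, a coreceptor of Frizzled signalling in the retinal vessels of mouse and human, was at 33.7, 52.1 and 7.87 FPKM in the control against 6.10, 4.18 and 5.12 at 3 h. Summed endothelial markers ranged from 37.1 to 48.9 FPKM in control libraries and from 16.5 to 40.3 FPKM in those of 3 h. Of the sum in 3 h A, CLDN5 alone gave 17.3 FPKM, and the list had a median log2 difference of -0.64 at 3 h from control. The part of these markers in the values of the 3 genes was not tested.

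Of genes known from erythroid cells, ALAD, an early enzyme of haem synthesis, was at 9.54, 37.8 and 9.91 FPKM in control libraries, 34.3, 22.7 and 11.2 at 1 h and 1.36, 3.28 and 4.00 at 3 h. In the 6 h libraries it measured 24.7, 17.4 and 20.7 FPKM, and 14.5, 16.8 and 10.4 in those of 12 h. The groups did not overlap at 3 h. The erythroid nuclear protein gene hemgn was at 11.3, 18.7 and 7.36 FPKM in control libraries, 49.6, 8.68 and 15.6 at 1 h and 2.74, 2.65 and 5.19 at 3 h. Values of 12.7, 12.6 and 14.9 FPKM followed at 6 h and of 24.6, 1.58 and 33.5 at 12 h. It was lower in 12 h B than in any 3 h library. Summed erythroid markers were also lowest in 12 h B, at 327 FPKM. They had overlapping ranges in the control (2501 to 4806 FPKM) and at 3 h (997 to 5153 FPKM). This overlap rested on 3 h C, where HBE1 gave 2609 FPKM, beside 695 and 451 FPKM in 3 h A and B. The erythroid list had a median log2 difference of -0.59 at 3 h from control, beside -0.13 over all genes. The part of these markers in the values of ALAD and hemgn was not tested.

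Among genes of transport and metabolism, the cytochrome P450 gene cyp2y3 was at 15.8, 7.71 and 12.6 FPKM in control libraries, 14.3, 11.8 and 1.48 at 1 h and 0, 0.104 and 0 at 3 h. Later levels were 2.48, 13.1 and 7.58 FPKM at 6 h and 14.2, 20.7 and 17.9 at 12 h. It was nearly lost in all 3 h libraries, and 1 h C was the lowest of the others. SLC15A2, a peptide transporter, was at 1.99, 1.17 and 30.7 FPKM in control libraries, 4.35, 0.0660 and 6.75 at 1 h and 0, 0.765 and 0.0923 at 3 h. By 6 h the libraries gave 5.27, 4.44 and 1.31 FPKM, and at 12 h 3.90, 6.24 and 20.8. It was uneven, with most of its control and 12 h signal in library C, and 1 h B lay within the 3 h range. The water channel AQP4 was at 24.2, 29.9 and 8.64 FPKM in the control against 1.42, 5.29 and 4.29 at 3 h, the phosphate-regulating peptidase PHEX at 25.3, 19.1 and 11.5 FPKM in the control against 0, 0.363 and 4.92 at 3 h, and NTMT2, which methylates protein N termini, at 13.7, 32.9 and 8.25 FPKM in the control against 0 in each library at 3 h. NTMT2 was the furthest of the 91 from the control at 3 h, at -4.06, but 1 h A was also at 0.

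No role is given here for 17 genes, most of them known by clone names. The clone zgc:153675 was at 13.0, 22.0 and 3.16 FPKM in control libraries, 16.2, 12.1 and 4.78 at 1 h and 0, 0 and 0.812 at 3 h. Later, 17.1, 27.3 and 24.2 FPKM were measured at 6 h and 28.6, 10.1 and 22.7 at 12 h. It had the second largest distance, with 3 h A and B at 0 and no overlap. The clone zgc:194659 was at 47.7, 10.5 and 3.62 FPKM in control libraries, 14.9, 28.9 and 4.03 at 1 h and 0, 3.45 and 3.23 at 3 h. At 6 h it was at 19.1, 8.72 and 24.0 FPKM and at 12 h at 20.8, 48.4 and 24.2. It did not overlap, but control C and 1 h C were only just above 3 h B. The clone si:dkey-20d21.12, among the 6 highest in the control, was at 30.1, 77.8 and 38.3 FPKM in control libraries, 24.0, 18.8 and 18.3 at 1 h and 0, 4.06 and 23.9 at 3 h. The 6 h libraries held 44.7, 28.7 and 34.9 FPKM and the 12 h libraries 11.4, 25.7 and 10.2. Its 3 h C library lay above 4 libraries of 1 and 12 h, so its trough was clear only against control and 6 h. The clone si:dkey-4i23.5 was at 6.54, 14.9 and 12.3 FPKM in control libraries, 12.8, 1.86 and 12.1 at 1 h and 3.65, 0 and 3.91 at 3 h. Its levels were 9.10, 8.71 and 9.49 FPKM at 6 h and 14.8, 12.6 and 9.51 at 12 h, with 1 h B inside the 3 h range. The remaining ones (si:ch211-246m6.4, si:ch211-101l18.8, cav4b, C18H11orf58, ENSDARG00000099194, si:ch73-43g23.1, si:dkey-261m9.7, SAMD13, zgc:77262, si:ch211-262h13.3, tmem119b, zwi and si:dkey-14d8.21) had log2 differences of 3 h from control between -3.39 and -1.51. The most even of them, si:ch73-43g23.1, was at 24.6, 14.0 and 18.9 FPKM in control libraries, 17.4, 12.0 and 16.7 at 1 h and 4.06, 2.93 and 3.76 at 3 h. In the 6 h libraries it measured 14.2, 15.0 and 14.3 FPKM, and 16.3, 15.0 and 14.1 in those of 12 h, and its 3 h libraries were all below 5 FPKM while all others were above 11 FPKM.

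The distance of 1.5 cut through a continuous range. The median distance of the 91 was 1.78. The 3 genes nearest inside were SLC15A2 (1.506), si:dkey-4i23.5 (1.503) and MBTPS2 (1.503). Just outside were ccl33.3 (1.495), MCM7 (1.477) and gzf1 (1.474), which met the other terms. The chemokine gene ccl33.3 was at 6.97, 2.35 and 1.67 FPKM in control libraries, 0, 5.37 and 2.52 at 1 h and 0 in each library at 3 h. Values of 2.12, 4.01 and 1.14 FPKM followed at 6 h and of 0.318, 4.00 and 2.62 at 12 h, so 1 h A was at 0 like 3 h. The zinc finger gene gzf1 was at 5.39, 7.86 and 5.67 FPKM in control libraries, 0, 11.7 and 6.23 at 1 h and 0, 3.27 and 0 at 3 h. Later levels were 6.48, 5.84 and 7.10 FPKM at 6 h and 8.76, 3.29 and 5.40 at 12 h, and 1 h A was again at 0. MCM7, a subunit of the replicative helicase, was at 14.3, 17.4 and 3.34 FPKM in control libraries, 7.56, 11.3 and 20.1 at 1 h and 2.71, 0.830 and 2.82 at 3 h. By 6 h the libraries gave 8.55, 6.41 and 11.3 FPKM, and at 12 h 6.77, 2.91 and 17.4, and its 3 h C library lay just below 12 h B.

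The groups other than 3 h were compared in the fit of all genes. The rule uses no contrast between these groups, but it does select on their values, since each mean had to lie at least 1.5 above 3 h. A gene very low in any of them could not be among the 91. The rule also kept every control and 6 h library above the 3 h libraries, and asked this of no single 1 h or 12 h library. The counts below therefore describe selected genes. Between 1 h and control, limma called 29 of 13051 genes (0.222%) and none of the 91; at an unadjusted p under 0.05 these were 1218 genes (9.33%) and 3 of the 91 (3.3%). At 6 h against control, limma called 0 of 13051 genes (721, or 5.52%, at an unadjusted p under 0.05) and 0 of the 91, with 2 of the 91 (2.2%) unadjusted. At 12 h against control, limma called 0 genes (992, or 7.6%, unadjusted) and 0 of the 91, with 2 (2.2%) unadjusted. Between 6 h and 1 h, it called 7 genes (0.0536%; 1150, or 8.81%, unadjusted) and 0 of the 91, with 3 (3.3%) unadjusted. With voom on the recovered reads the counts over all genes were, in the same order, 89 (0.682%), 1 (0.00766%), 0 (969 unadjusted) and 46 (0.352%), and again 0 of the 91. Single libraries moved the counts over all genes: at 1 h against control they were 7 without control A, 10 without control B or C, 12 without 1 h A and 53 without 1 h B. Between 6 h and 1 h they were 3 without 1 h A, 1 without 1 h B, 30 without 1 h C, 1 without 3 h C, 4 without 12 h A and 0 without any 1 of the 6 h libraries, and still 0 of the 91 were called. A p that misses the threshold does not show that levels were equal.

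The smallest p at 1 h was that of lemd1, whose control libraries (61.5, 90.8 and 88.7 FPKM) did not overlap the 1 h libraries (21.6, 41.6 and 14.6 FPKM). Its difference was -1.70 ± 0.46 (SE, limma, adjusted p = 0.189). NTMT2 was -2.39 ± 0.84 at 1 h (limma, adjusted p = 0.382), with 1 h B (8.98 FPKM) above control C (8.25 FPKM). The third gene with an unadjusted p under 0.05 was pex26, at -2.20 ± 0.95 (limma, adjusted p = 0.479), with 1 h B (18.7 FPKM) inside the control range. At 6 h against control, RNASEH2A was 1.76 ± 0.60 (limma, adjusted p = 0.813) and did not overlap, and PUS1 was 2.11 ± 0.85 (limma, adjusted p = 0.854). At 12 h, IER3IP1 was 1.03 ± 0.42 (limma, adjusted p = 0.603), each 12 h library above each control library in deposited FPKM. This separation depended on the scaling. After median ratio scaling the IER3IP1 difference was 0.685, and 12 h B lay below control A and control B. The clone si:dkey-14d8.21 was 1.86 ± 0.66 at 12 h (limma, adjusted p = 0.541), with 12 h libraries of 14.8, 8.74 and 12.7 FPKM against 4.62, 1.80 and 1.83 FPKM. Between 6 h and 1 h, lemd1 was 1.33 ± 0.46 (limma, adjusted p = 0.396) and synpo2b 1.13 ± 0.50 (limma, adjusted p = 0.521), and neither overlapped in deposited FPKM. PUS1 was 1.83 ± 0.85 (limma, adjusted p = 0.554), and every 6 h library lay above every 1 h library in deposited FPKM. For synpo2b and PUS1 the gap was narrow, with 1 h C just below the lowest 6 h library. Median ratio scaling divides 1 h C by 0.896 and 6 h B by 1.04, which puts 1 h C above 6 h B in each of these genes. None of the differences named here passed.

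In direction, 32 of the 91 genes were higher at 1 h than in the control, with a median difference of -0.26 beside -0.12 over all genes. That order rested on 1 library: without 1 h B, 38 were higher and the median was -0.08 beside -0.18 over all genes. With the replicate block, 41 were higher and the median was -0.08 beside -0.17, and without 1 h C the median was -0.39 beside -0.11. At 6 h 49 were higher, with a median of 0.10 beside -0.02, and of 0.02 beside -0.05 without 6 h B. Without control B this median was 0.04 beside -0.02, and without control C it was 0.05 beside 0.02. At 12 h 59 were higher, with a median of 0.19 beside 0.32 over all genes. This majority at 12 h turned with the scaling: 39 were higher after median ratio scaling (median -0.12, all genes 0.10) and 38 with voom (median -0.14, all genes 0.15). Between 6 h and 1 h 65 were higher at 6 h, with a median of 0.34 beside 0.07 over all genes, and 59 with the replicate block, with a median of 0.19 beside 0.13. These comparisons share their control libraries, or their 1 or 6 h libraries, and are given side by side. The rule excluded genes with a low control or 6 h library and not those with a low 1 h or 12 h library. That can raise control and 6 h against 1 h and 12 h, so the 91 and all genes are not compared like for like. The genes of cell division were higher at 12 h than in the control in 12 of 13 cases, in 10 after median ratio scaling and in 11 with voom, though none of them passed. Their median difference was 0.62 beside 0.32 over all genes. It was 0.31 beside 0.10 after median ratio scaling and 0.35 beside 0.15 with voom.

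**Figure D5:**
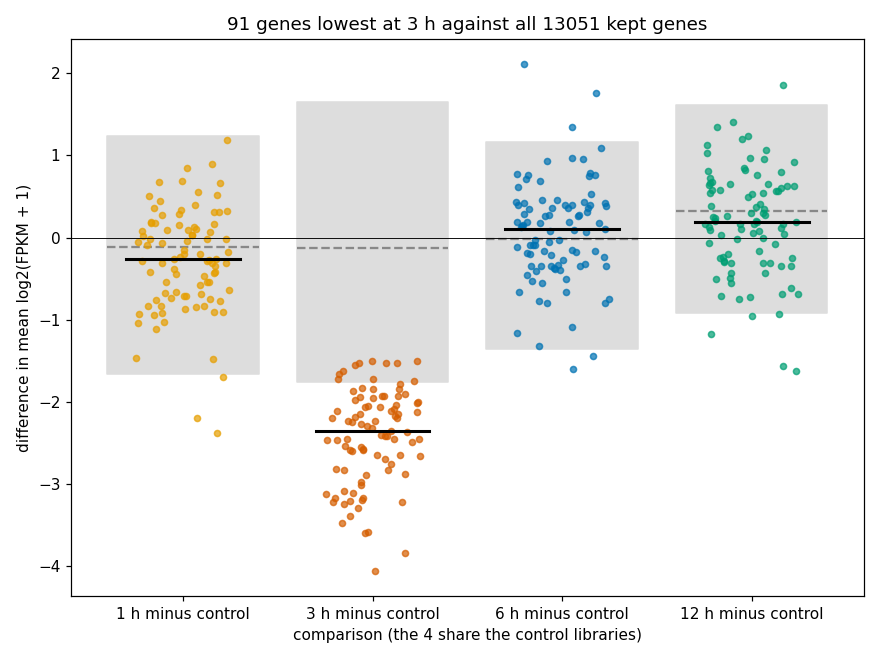
Differences from the control in mean log2(FPKM + 1) at 1, 3, 6 and 12 h; points are the 91 genes, black bars their median, grey boxes the range between the 5th and 95th percentile of all 13051 genes and dashed lines the median of all genes. The medians of the 91 genes are -0.26, -2.36, 0.10 and 0.19; the 3 h column shows the values that chose the genes, and the 4 columns share the control libraries.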

How the data were processed

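RNA sequencing libraries of laser-captured zebrafish tissue were compared: 15 libraries in 5 groups of 3. Per the labels' protocols and the submitters' processing notes, HiSeq 4000 reads were aligned with HISAT to GRCz11 of Ensembl release 106, and the authors made FPKM values with StringTie and edgeR. Tool versions: not given in the sources used here. In all, the deposited table lists FPKM for 32520 Ensembl gene IDs, and 3 further columns match no sample and were not used.

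Symbols were found for 29201 IDs by exact ID, 3319 keep their ID, and the FPKM of IDs with the same symbol were added up, giving 28103 genes. Of the 91 genes, 7 sum 2 IDs, whose copies can share reads. Strand use is not given in the sources used here. Reads per ID were recovered from the FPKM steps: for each of 20690 IDs detected in 2 or more libraries, the reads were whole to within 0.001, with 12486844 to 15651535 reads per library. The search took the first scale that gave whole reads. For IDs detected in only 2 or 3 libraries some scale nearly always fits, so wholeness is no check of their reads. In a gene of 2000 bases, 3 reads correspond to 0.0958 to 0.12 FPKM, which covers counting error only. An exact 0 is given as listed at 0.

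Genes with at least 1 FPKM in at least 3 libraries were fitted, 13051 in all: log2(FPKM + 1) with limma (version 3.58.1, R version 4.3.3; eBayes with trend), all libraries in 1 fit with group means, two-sided, Benjamini-Hochberg adjustment over all genes fitted, threshold 0.05. The comparisons were 1, 6 and 12 h against control and 6 h against 1 h; contrasts with 3 h chose the genes and were not used as tests. Named with every library were the 12 genes of largest distance, the 6 highest in the control, up to 6 per gene list, and 3 on each side of the limit; others, and the role groups, were chosen after values were seen. The 91 genes and all lists were chosen with earlier results of these data known.

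Alternatives were a pseudocount of 0.1, no filter on low values, median ratio scaling, limma's array weights, a fit of 2 groups alone, a replicate block, 1 value for every ID, voom (limma) on recovered reads with library sizes from median ratios, distances of 1 and 2 in the rule, and leaving out each library. The library sizes used in voom were set after results with another scaling had been seen; 0 of the 91 genes were called with either. Some genes are left unnamed and are not reported here, though the counts include them.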

Additional observations from a re-analysis of the deposited data

How the results depend on the processing

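The number of genes that met the rule was 284 with a pseudocount of 0.1 (90 of the 91 among them), 240 at a distance of 1 and 38 at a distance of 2 (31 of the 91), beside 99 as reported. It was 99 with no filter on low values, 99 with 1 value per gene ID (88 of the 91) and 81 after median ratio scaling (70 of the 91). Leaving out 1 library gave 92 (without 1 h C) to 191 (without 3 h B), and between 63 (without 3 h A) and 88 of the 91 still passed. In each of the 4 tested comparisons limma called 0 of the 91 genes under all alternatives, voom on recovered reads included, and the smallest adjusted p of any of them was 0.0813. With the replicate block 0 of the 91 were called in each comparison; the letters were not shown to pair libraries, since the correlation of deviations was -0.155 to 0.134 over 26 pairs with a shared letter, 1 of them over 0.1. The 10 named differences kept their direction and side of the threshold in 100 of 100 alternatives. These were the pseudocount of 0.1, median ratio scaling, array weights, the replicate block and leaving out each library of the groups compared. Voom, no filter, the fit of 2 groups alone and 1 value per gene ID are not in that count.

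Counts over all genes were less steady than these: at 1 h against control 29 as reported, 16 with no filter, 0 with only the 2 groups, 9 with the block and 89 with voom; at 6 h against 1 h 7 as reported, 1, 0, 1 and 46. At 6 h against control array weights gave 13 and the block and voom 1 each, and at 12 h no filter gave 6, each beside 0 as reported. The cause was not tested. Few reads lie behind some 3 h values: 11 of the 91 genes rested on at most 3 reads there. The 3 h libraries held 12531040 to 13393610 reads, within the range of the other groups.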
